A study of Homo sapiens with 30 samples.

Results

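The comparison described here sets human cardiomyocyte cultures labelled as knockouts of QKI against cultures labelled wild type on day 8 of differentiation, in whole-cell RNA. It rests on 6 of the study's 30 libraries, chosen by their labels: 3 labelled D8 WT (replicates 2, 3 and 4) and 3 labelled D8 KO (replicates 1, 2 and 4). The measurements are read counts for 39126 listed genes, of which 21761 passed the filter on low counts. They also cover 92068 skipped exons with their neighbours (exon events) listed for that day by the authors. Of these events, 79117 averaged 10 or more junction reads in the libraries of each genotype and are termed measured. All cultures came from Hues6, a human embryonic stem cell line, and were driven towards heart muscle with BMP4 at 1.5 ng/mL, the GSK3 inhibitor CHIR, and then the WNT secretion inhibitor C59 at 100 nM (at a later medium change the protocol writes the unit as mM). CHIR was given at 1.5 µM to the wild-type cells and at 1.25 µM to the knockout cells. The genotype and the dose of this WNT pathway activator therefore cannot be told apart in any result below that uses day 4 or day 8 cells. For the day 0 and 293T libraries used for comparison, no CHIR is listed. The day 8 cultures were collected once they were seen to beat. The sources used here do not give how the knockout was made or how many clones it rests on. They do not say either that the 3 libraries of a group are separate cultures, and the spread that the p-values measure may be technical. Further libraries of the study serve for comparison: 3 of each genotype on day 0 (undifferentiated) and on day 4, 3 of each genotype from the nuclear RNA of day 8 cells, and 3 per arm of 293T cells, a human embryonic kidney line, treated with an siRNA against QKI or a control siRNA.

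QKI encodes an RNA-binding protein of the STAR family, which reads short intronic and untranslated-region motifs of the ACUAA type through a KH domain. It helps decide whether neighbouring exons enter the mature transcript, and it also acts on mRNA stability and translation. In heart and smooth muscle it is known for its part in the alternative splicing of genes of the contractile apparatus, and its loss in mice disturbs cardiovascular development.

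The targeted gene was read first. On day 8 its level was 368, 319 and 285 CPM (read counts scaled to library size) in D8 WT replicates 2, 3 and 4 and 340, 329 and 337 CPM in D8 KO replicates 1, 2 and 4. The groups overlapped, and the difference was 0.05 on the log2 scale (SE 0.09, adjusted p = 0.659, edgeR quasi-likelihood test). On day 0 the libraries labelled KO stood at 41.3, 41.3 and 35.5 CPM against 300, 294 and 286 CPM in the wild type, a log2 fold change of -2.90. On day 4 they stood at 88.5, 68.2 and 78.0 CPM against 144, 139 and 156 CPM, a log2 fold change of -0.90. In day 8 nuclear RNA the direction was the opposite, with 473, 535 and 509 CPM in the libraries labelled KO against 187, 139 and 152 CPM, a log2 fold change of 1.66. The total read count of QKI at day 8 therefore goes against the label, and the groups are called by their labels throughout.

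The junction reads of the gene's exons told the groups apart. An exon of 117 nt at chr6:163899812-163899928 (build hg19, plus strand) lies in the part of the gene that codes for the RNA-binding region. Its letters are printed to show which stretch of the message was skipped more often in the KO arm, with the last 3 bases in capitals.

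QKI exon of 117 nt: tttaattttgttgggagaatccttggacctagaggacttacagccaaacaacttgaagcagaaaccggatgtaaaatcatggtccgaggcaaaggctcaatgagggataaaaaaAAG

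In the authors' deposited table, 1965, 1477 and 1903 junction reads included this exon in the wild-type arm and 203, 223 and 215 in the KO arm. The reads that skip it, in the same deposited event, join the exon ending at 163836367 to the one starting at 163956014 and so also leave out a 143-nt exon in between. These numbered 0, 0 and 0 in the wild-type arm and 642, 829 and 715 in the KO arm of the authors' deposited table, and its inclusion level went from 1 in each wild-type library to 0.137, 0.119 and 0.131, a difference of -0.871 with an FDR listed as 0. The 143-nt exon at chr6:163876311-163876453 had 2690, 2428 and 2610 inclusion reads in the wild-type arm and 356, 386 and 330 in the KO arm of the authors' deposited table. Together the exons hold 260 nt, which leaves a remainder of 2 after division by 3. The next exon, of 144 nt, had 3478, 2635 and 3325 inclusion reads in the wild-type arm and 1365, 1758 and 1565 in the KO arm of the authors' deposited table, in the event whose upstream neighbour is the 117-nt exon. In the event whose upstream neighbour ends at 163836367 it had 1557, 1192 and 1471 against 1863, 2409 and 2134 in that deposited table. Further downstream, the 88-nt exon had 1839, 1441 and 1614 inclusion reads in the wild-type arm and 1266, 1670 and 1475 in the KO arm of the authors' deposited table, and the 75-nt exon had 2444, 2096 and 2274 against 2695, 3426 and 2967. In 2 other deposited events the 117-nt exon read differently. With the 143-nt exon as neighbour, its level was 0.996, 0.999 and 0.998 in the wild-type arm and 0.971, 0.981 and 0.976 in the KO arm. Its inclusion reads there were 3557, 2845 and 3344 against 335, 412 and 329. In the event that skips to 163983014 they were 49, 54 and 57 against 59, 45 and 71, which overlap. Reads over the 143-nt exon, and over the 117-nt exon in its 2 events with most reads, were thus fewer in every library labelled KO. Those over the 88-nt exon overlapped, and those over the 75-nt exon were more. The plot of QKI levels and junction reads shows both readings.

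**Figure D1:**
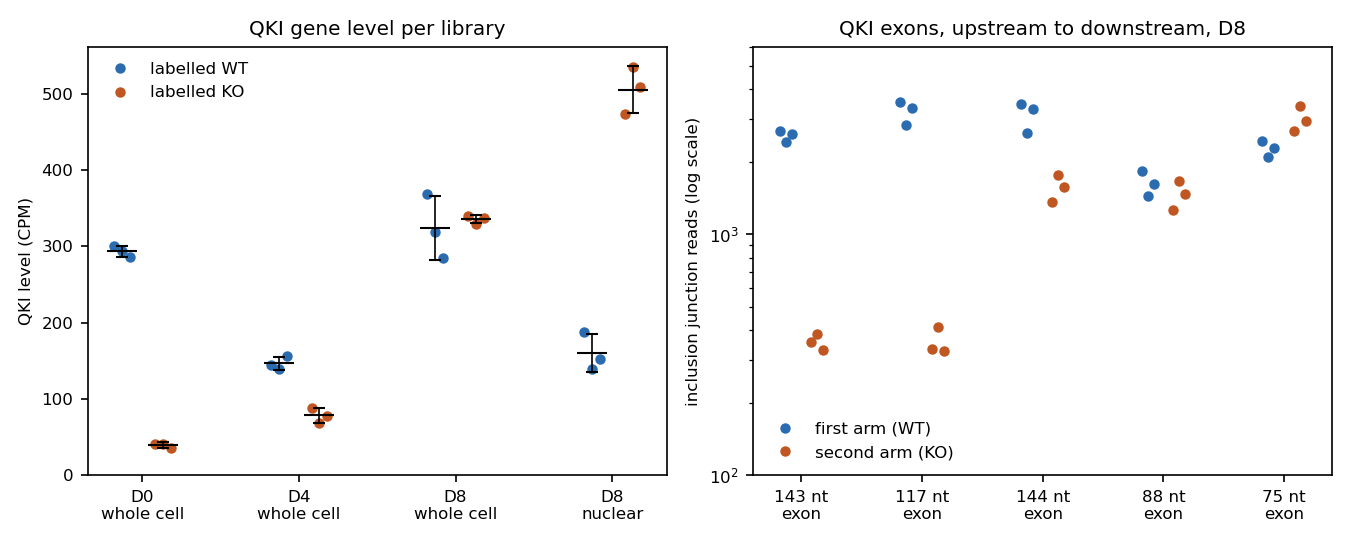
Left, QKI level in CPM (linear axis from 0) for each library on day 0, day 4 and day 8 and in day 8 nuclear RNA, with bars for the mean and SD of 3 libraries; right, inclusion junction reads (log axis) of QKI exons from upstream to downstream on day 8, from the authors' deposited table, with 1 point per library. The genotypes are far apart on day 0 (286 to 300 against 35.5 to 41.3 CPM) and overlap on day 8, while the 143-nt and 117-nt exons are covered less in each library of the KO arm.

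The 6 libraries held 62162704 to 89948185 counted reads. Mitochondrially encoded genes took 6.83 to 7.93% of them in the wild type and 8.57 to 9.73% in the libraries labelled KO. Across genes, log CPM correlated at 0.993 or more between libraries of a genotype and at 0.975 or less between genotypes. All 9 markers of cardiomyocytes that were looked for were present in every library, the lowest value being 44.8 CPM. Their sum was 9269 to 16270 CPM in the wild type and 25370 to 29000 CPM in the libraries labelled KO: 7 markers were higher there, ACTN2 was lower, and MYH7 stood at 79.4, 88.4 and 49.7 against 76.5, 77.2 and 81.7 CPM (adjusted p = 0.524).

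Of the 21761 genes tested, 12097 (55.6%) passed an adjusted p of 0.05 in edgeR's quasi-likelihood test, 6396 (29.4%) with the KO label on the higher side and 5701 (26.2%) with it on the lower side. At 2-fold or more the counts were 1404 (6.45%) higher and 2213 (10.2%) lower. The 2 groups did not overlap in 13159 genes (60.5%). Most genes tested thus differed, and the counts of any gene group below are to be read against these shares. The median log2 fold change over all genes was 0.0063 with TMM scaling and -0.1221 with scaling by total counts, a shift that moved the share of calls that were higher from 52.9% to 37.6%. In bulk RNA, fewer cells of a type and less RNA per cell cannot be told apart. Genes with near-identical copies, such as the cardiac myosins MYH6 and MYH7 and the actins ACTC1, ACTA1 and ACTA2, may exchange reads, and the sources used here do not say how reads with several matches were handled.

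Genes of the contractile apparatus were mostly higher in the libraries labelled KO. Of 13 thick-filament and M-band genes tested, 10 were higher and 1 lower (median log2 fold change 0.70), and of 17 Z-disc genes 15 were higher and 2 lower (median 0.92). Of 12 thin-filament genes 6 were higher, 3 lower and 3 did not pass the test (median 0.61). The summed level of the thick-filament list was 16540, 13330 and 9472 CPM in D8 WT replicates 2, 3 and 4 and 25610, 29340 and 29370 CPM in D8 KO replicates 1, 2 and 4.

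MYBPC3, the cardiac myosin-binding protein C of the thick filament, was at 230, 238 and 167 CPM in the wild type and at 524, 624 and 638 CPM in the libraries labelled KO. Its log2 fold change was 1.49 (SE 0.10, adjusted p = 1.84e-10), and the lowest KO library lay above the highest wild-type one. MYL7, the atrial regulatory light chain, was at 2041, 1736 and 1287 CPM against 3698, 4084 and 4370 CPM (log2 fold change 1.26, SE 0.13, adjusted p = 9.32e-08). MYH6, the alpha cardiac myosin heavy chain of the atrium and embryonic heart, was at 10940, 8280 and 5737 CPM against 16480, 19060 and 18560 CPM, a log2 fold change of 1.12 (SE 0.19). In all 3 genes the wild-type replicate 4 was the lowest library and no KO library overlapped the wild type.

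Among thin-filament genes, the slow skeletal and fetal cardiac troponin I TNNI1 was at 1069, 889 and 652 CPM against 2082, 2583 and 2897 CPM (log2 fold change 1.53, SE 0.18, adjusted p = 4.98e-07). Cardiac troponin T, TNNT2, was at 1085, 1039 and 787 CPM against 2237, 2738 and 2770 CPM (log2 fold change 1.41, SE 0.21). The genes that fell in this list are better known from skeletal muscle or from several muscle types. ACTA1, skeletal alpha-actin, was at 68.2, 80.9 and 65.9 CPM against 27.4, 37.8 and 25.9 CPM (log2 fold change -1.24, SE 0.16, adjusted p = 1.16e-06), TNNT1, slow skeletal troponin T, fell by 0.78 on the log2 scale (SE 0.09), and beta-tropomyosin, TPM2, fell by 0.35 (SE 0.08). TPM1, alpha-tropomyosin, overlapped between the groups (log2 fold change -0.14, adjusted p = 0.157).

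At the Z-disc, where thin filaments of neighbouring sarcomeres are anchored, 2 intermediate-filament and scaffold genes rose most. DES, the muscle intermediate filament desmin, was at 7.73, 7.25 and 4.59 CPM against 20.6, 25.4 and 24.9 CPM (log2 fold change 1.86, SE 0.18, adjusted p = 2.48e-08). MYPN, the scaffold protein myopalladin, rose by 2.15 on the log2 scale (SE 0.22). The reverse held for ACTN2, the alpha-actinin that cross-links actin at the Z-disc and a common cardiomyocyte marker. It was at 476, 434 and 296 CPM in the wild type and at 85.0, 101 and 100.2 CPM in the libraries labelled KO (log2 fold change -2.07, SE 0.12, adjusted p = 1.55e-11), so that the groups were far apart in the direction opposite to most sarcomere genes. In nuclear RNA under TMM scaling, ACTN2 was higher in the libraries labelled KO, by 0.45 (adjusted p = 0.0111, edgeR quasi-likelihood test). The scaling factors differed between the genotypes there, so this value depends on the scaling. DES was lower there, by 0.55 (adjusted p = 0.0272, edgeR quasi-likelihood test).

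**Figure D2:**
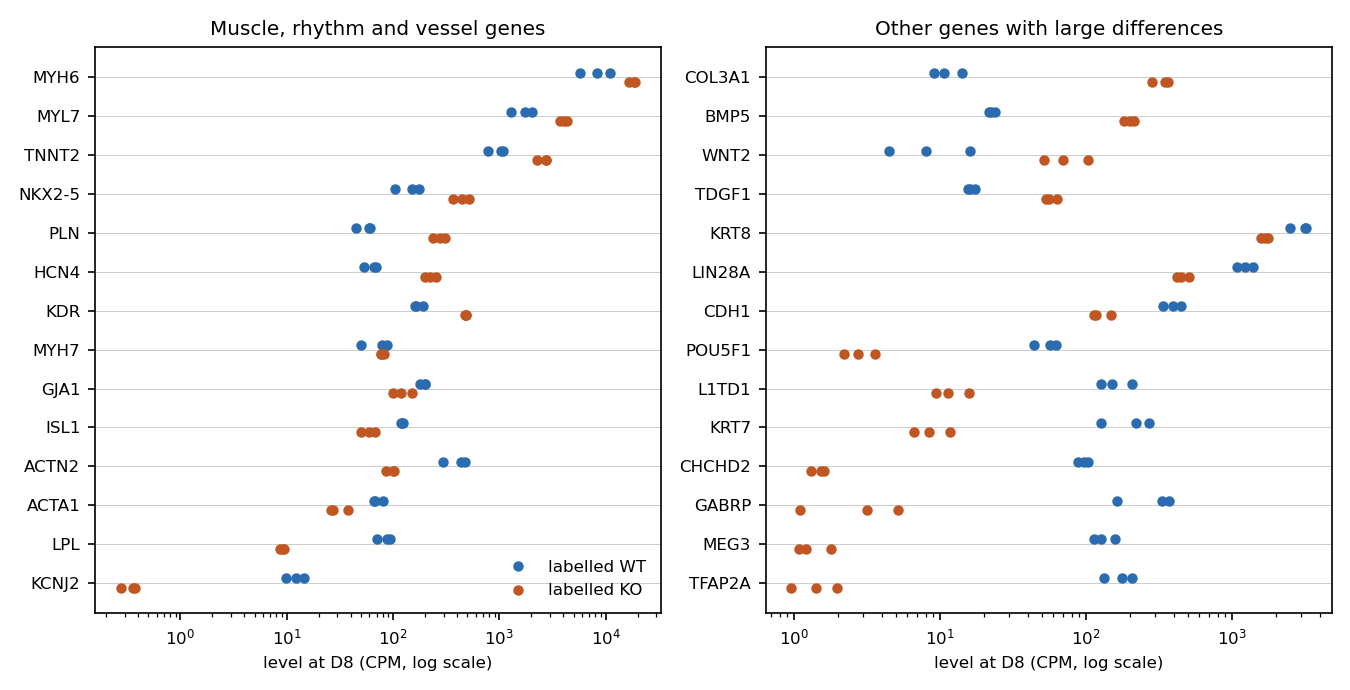
Level per library in CPM (log axis) of muscle, rhythm and vessel genes (left) and of other genes with large differences (right) on day 8, with 1 point per library and the genotypes in different colours. For MYH6, TNNT2 and PLN every library labelled KO lies above the wild type, and for ACTN2 and KCNJ2 every one lies below it.

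Calcium handling, electrical activity and metabolism moved largely with the sarcomere. Of 18 calcium-handling genes 11 were higher and 2 lower (median 0.66). Of 19 ion channel and junction genes 12 were higher and 5 lower (median 0.81), and of 20 genes of cardiac energy supply 18 were higher and 1 lower (median 0.72). PLN, phospholamban, which restrains the calcium pump of the sarcoplasmic reticulum, was at 60.7, 59.1 and 44.8 CPM against 240, 277 and 310.0 CPM (log2 fold change 2.33, SE 0.12, adjusted p = 1.55e-11). The pump itself, ATP2A2, rose by 0.74 (SE 0.09). CACNA1C, the pore of the L-type calcium channel, was at 45.0, 51.1 and 38.2 CPM against 97.2, 107 and 122 CPM (log2 fold change 1.28, SE 0.10). CASQ2, the calcium-binding protein inside the reticulum, went the other way, at 2.30, 2.80 and 3.18 CPM against 0.495, 0.964 and 1.05 CPM (log2 fold change -1.73, SE 0.29, adjusted p = 7.23e-05).

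HCN4, the pacemaker channel of nodal and early cardiac cells, was at 68.4, 65.7 and 53.8 CPM against 200, 221 and 255 CPM (log2 fold change 1.85, SE 0.11, adjusted p = 1.18e-11). KCNH2, which carries the rapid repolarising potassium current, rose by 1.44 (SE 0.16). KCNJ2, the inward rectifier that holds the resting potential of working muscle cells, was at 9.92, 12.1 and 14.6 CPM in the wild type and at 0.371, 0.273 and 0.355 CPM in the libraries labelled KO (log2 fold change -5.20, SE 0.22, adjusted p = 1.38e-13). Its 3 libraries labelled KO were all below 1 CPM, and in nuclear RNA the gene showed a log2 fold change of -0.16 (adjusted p = 0.353). The potassium channel subunit KCNE1 fell by 2.36 (SE 0.22), and the gap junction protein GJA1 fell by 0.64 (SE 0.10).

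Among the metabolic genes, PPARGC1A, a coactivator of mitochondrial genes, was at 47.5, 40.6 and 35.9 CPM against 114, 128 and 132 CPM (log2 fold change 1.59, SE 0.10, adjusted p = 3.04e-11). The creatine kinases CKB and CKM rose by 1.52 (SE 0.07) and 1.41 (SE 0.13). LPL, the lipase that frees fatty acids from circulating lipoproteins, was the exception called lower, at 69.9, 92.7 and 87.7 CPM against 9.26, 8.56 and 9.51 CPM (log2 fold change -3.20, SE 0.14, adjusted p = 1.95e-13). Of the 13 mitochondrially encoded genes 12 were higher (median 0.49), which moves with the larger mitochondrial share of reads given above.

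Regulators of heart identity followed the same direction. Of 25 cardiac transcription factors 18 were higher and 2 lower (median 1.00). TBX5, which patterns the first heart field and the atria, was at 29.5, 28.7 and 18 CPM against 86.5, 104 and 113 CPM (log2 fold change 1.99, SE 0.17, adjusted p = 4.69e-09). NKX2-5, the early cardiac homeobox factor, was at 176, 151 and 104 CPM against 365, 441 and 513 CPM (log2 fold change 1.62, SE 0.15), and IRX4, a ventricular factor, was at 9.07, 11.7 and 9.05 CPM against 42.1, 57.1 and 71.7 CPM (log2 fold change 2.52, SE 0.16). ISL1, which marks progenitors of the second heart field, was lower, at 123.3, 118.8 and 122.1 CPM against 67.0, 58.7 and 50.3 CPM (log2 fold change -1.05, SE 0.11, adjusted p = 6.99e-08).

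The second heart field list was split, with 5 of 13 genes higher and 6 lower (median -0.58). FGF10, a growth factor made by these progenitors, rose by 0.78 (SE 0.20), and ISL1, given above, is among the members that fell. Of 14 chamber genes 7 were higher and 1 lower (median 0.77). NPPB, the B-type natriuretic peptide, was the member called lower, at 17.4, 26.6 and 23.5 CPM against 10.9, 8.72 and 7.48 CPM (log2 fold change -1.32, SE 0.23).

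Among the genes that fell furthest were those of surface ectoderm and of amnion, an epithelial cell type that stem cell cultures can form under BMP. All 14 genes of this list that were tested were lower in the libraries labelled KO, with a median log2 fold change of -4.45. The list's summed level was 915, 1399 and 1597 CPM in D8 WT replicates 2, 3 and 4 and 154, 128 and 142 CPM in the libraries labelled KO. Within the wild type, the library with the lowest amnion sum, replicate 2, had the highest thick-filament sum, and replicate 4 had the reverse; the part of such differences in the results was not tested. TFAP2A, a transcription factor of surface ectoderm, was at 134, 177 and 207 CPM against 1.99, 0.964 and 1.42 CPM (log2 fold change -6.89, SE 0.27, adjusted p = 4.36e-14). GABRP, a GABA receptor subunit found in amnion, was at 164, 333 and 374 CPM against 3.18, 1.11 and 5.20 CPM (log2 fold change -6.54, SE 0.42), and KRT7, a keratin of simple epithelia, was at 128, 223 and 273 CPM against 11.7, 6.72 and 8.41 CPM (log2 fold change -4.54, SE 0.28). The homeobox gene DLX5, at 20.5, 25.6 and 29.2 CPM, was below 1 CPM in each library labelled KO (log2 fold change -6.71, SE 0.36).

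General epithelial genes and genes of pluripotent cells were lower too. Of 17 epithelial genes 13 were lower and none was higher (median -0.87): CDH1, E-cadherin, was at 338, 395 and 447 CPM against 148, 117 and 113 CPM (log2 fold change -1.64, SE 0.12, adjusted p = 6.56e-10). Of 15 pluripotency genes 11 were lower and 1 higher (median -1.01). POU5F1, a core factor of the pluripotent state, was at 44.3, 56.6 and 62.4 CPM against 3.62, 2.76 and 2.20 CPM (log2 fold change -4.25, SE 0.16, adjusted p = 1.28e-14), and the RNA-binding protein gene L1TD1 fell by 3.74 (SE 0.17). TDGF1, a NODAL co-receptor that also acts in cardiac induction, was the member called higher, at 17.4, 16.1 and 15.7 CPM against 53.3, 56.5 and 63.4 CPM (log2 fold change 1.81, SE 0.10). Cell cycle genes moved with these lists: 22 of 24 were lower and none was higher (median -0.91), and TOP2A, the topoisomerase of dividing cells, was at 266, 216 and 243 CPM against 114, 91.0 and 77.9 CPM (log2 fold change -1.36, SE 0.10, adjusted p = 3.41e-10).

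**Figure D3:**
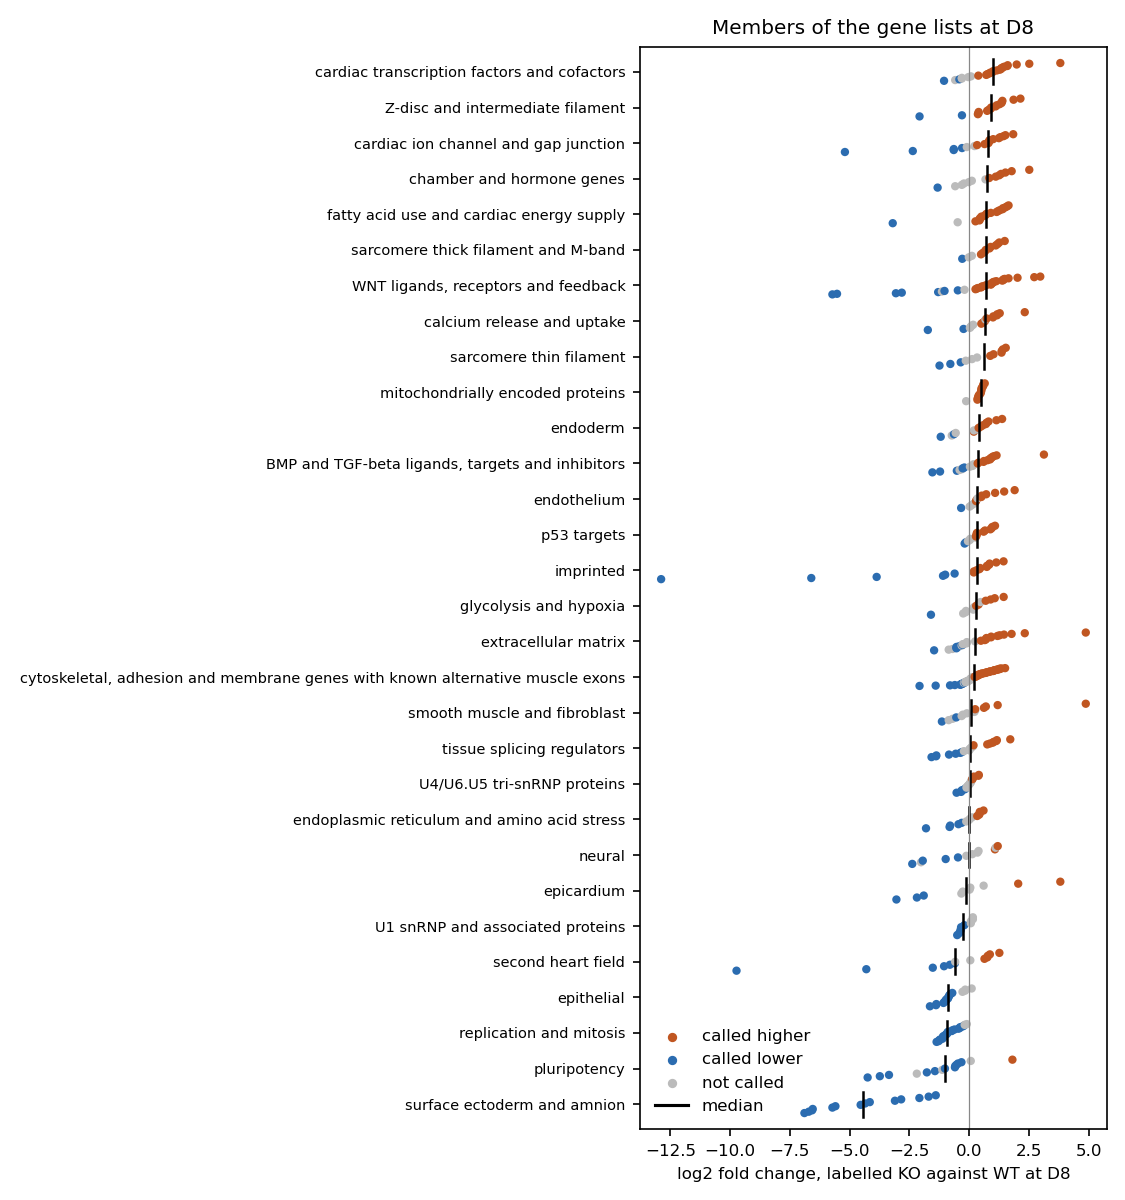
Log2 fold change (libraries labelled KO over wild type, day 8) of each tested member of the gene lists, 1 row per list, with called and uncalled genes in different colours and the list's median as a bar. The amnion and surface ectoderm list lies furthest to the left (median -4.45), and the Z-disc and cardiac transcription factor lists lie furthest to the right (medians 0.92 and 1.00).

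Markers of other lineages changed less uniformly. Of 14 endothelial genes 8 were higher and 1 lower (median 0.33), led in level by KDR, the VEGF receptor of endothelial and early mesodermal cells, at 193, 166 and 162 CPM against 481, 485 and 475 CPM (log2 fold change 1.47, SE 0.08, adjusted p = 3.73e-12). Of 15 endoderm genes 9 were higher and 2 lower (median 0.40), and TTR, a carrier protein of liver and visceral endoderm, rose by 1.38 (SE 0.17). Of 10 epicardial genes 2 were higher and 3 lower (median -0.12): BNC1, a zinc finger gene of epicardium and other epithelia, was at 48.2, 69.9 and 83.3 CPM against 9.06, 7.83 and 7.56 CPM (log2 fold change -3.04, SE 0.20). Smooth muscle and fibroblast genes had 5 of 14 higher and 2 lower (median 0.06), and neural genes had 2 of 12 higher and 4 lower (median 0.01). The last 2 medians change sign under scaling by total counts (-0.07 and -0.12), and under that scaling the endothelial, endoderm, BMP, imprinted and p53 lists no longer had most of their members higher. In nuclear RNA 10 of the 13 endothelial genes tested were lower and 1 was higher, beside 32.8% and 31.2% of all genes.

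The largest rise among genes with a mean of at least 10 CPM and no overlap was that of COL3A1, a fibrillar collagen of soft connective tissue and heart valves. It was at 10.8, 14.2 and 9.09 CPM in the wild type and at 348, 368 and 286 CPM in the libraries labelled KO (log2 fold change 4.88, SE 0.36, adjusted p = 4.49e-10). In nuclear RNA its log2 fold change was 0.57 (adjusted p = 0.0602). COL6A3, a microfibrillar collagen, was at 8.62, 8.56 and 7.18 CPM against 44.4, 44.5 and 33.5 CPM (log2 fold change 2.33, SE 0.13), and MFAP4, a microfibril protein, rose by 2.77 (SE 0.21). The matrix list as a whole had 13 of 27 genes higher and 6 lower (median 0.25). HAPLN1, which links hyaluronan to proteoglycans in the cardiac jelly, was among those lower, at 572, 608 and 682 CPM against 265, 223 and 187 CPM (log2 fold change -1.46, SE 0.13).

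Signalling genes of the WNT and BMP pathways were among the largest rises and falls. WNT proteins are secreted ligands whose signal first promotes and later restrains cardiac differentiation, and the 2 genotypes here also received different doses of a WNT pathway activator. Of 32 WNT pathway genes 23 were higher and 7 lower (median 0.69). Among ligands, WNT2 was at 16.1, 8.04 and 4.52 CPM against 52.1, 69.9 and 103 CPM (log2 fold change 2.98, SE 0.29, adjusted p = 3.25e-08, and 3.59 without D8 WT replicate 2). WNT6 and WNT4, by contrast, were at 16.1, 26.3 and 26.9 CPM and at 15.1, 24.8 and 26.5 CPM in the wild type and below 1 CPM in each library labelled KO (log2 fold changes -5.72, SE 0.38, and -5.53, SE 0.27). WNT6 is also a member of the amnion list. Among receptors and secreted modulators, the receptor FZD4 rose by 0.91 (SE 0.08), the WNT enhancer RSPO3 was at 12.2, 11.6 and 12.4 CPM against 48.1, 48.0 and 51.7 CPM (log2 fold change 2.03, SE 0.16), and the decoy SFRP5 was at 4.38, 5.92 and 5.57 CPM against 29, 34.7 and 41.6 CPM (log2 fold change 2.73, SE 0.13). SFRP2, a decoy of the same family, fell by 3.06 (SE 0.17).

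In the BMP and TGF-beta list 12 of 23 genes were higher and 5 lower (median 0.36). BMP5, a ligand made in heart mesoderm, was at 21.7, 24.0 and 22.4 CPM against 182, 201 and 213 CPM (log2 fold change 3.13, SE 0.11, adjusted p = 1.14e-14). TGFB1, a ligand that promotes matrix deposition, rose by 1.15 (SE 0.10), and CHRDL1, a secreted BMP antagonist, fell by 1.54 (SE 0.14). Other genes among the 12 largest rises were TRH, which encodes thyrotropin-releasing hormone (log2 fold change 3.43), FITM1, a lipid-droplet protein of muscle (2.86), and PRDM6, a smooth muscle transcription factor (2.40).

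Some genes were nearly silent in the libraries labelled KO. Counting genes with a mean of at least 1 CPM that had 3 reads or fewer over the 3 libraries of a group, and leaving out the transcripts of X inactivation, 22 were silent in the libraries labelled KO, 12 of them with 0 reads, and 0 were silent in the wild type. ZNF558, a zinc finger gene, was at 34.2, 31.8 and 36.7 CPM in the wild type, or 8834 reads, and had 2 reads over the libraries labelled KO. The depth-scaled ratio was 3330 (95% interval 921 to 27500, which covers counting error only), and the fitted log2 fold change of -11.42 became -13.98 without D8 KO replicate 4. In nuclear RNA, ZNF558 was at 24.9 CPM in the wild type and 24.6 CPM in the libraries labelled KO (log2 fold change -0.01, adjusted p = 0.925). NNAT, an imprinted gene for a small membrane protein, had 4098 reads in the wild type and 0 in the libraries labelled KO, where the limit that a count of 0 allows is 3 reads over the group, so that it was at least 1030-fold lower. Of the 22 silent genes, 17 were lower and 0 higher in nuclear RNA, beside 32.8% and 31.2% of all genes. Their nuclear level in the libraries labelled KO ran from 0.371 to 24.6 CPM.

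CHCHD2, a mitochondrial protein gene, was at 104, 98.0 and 88.9 CPM against 1.31, 1.54 and 1.60 CPM (log2 fold change -6.03, SE 0.18, adjusted p = 4.15e-16). It was lower in nuclear RNA as well, by a log2 fold change of -3.85. Among imprinted genes, which are expressed from 1 parental copy, 11 of 17 were higher and 6 lower (median 0.31). MEG3, a long noncoding RNA of the DLK1 locus, was at 113, 127 and 160 CPM against 1.81, 1.21 and 1.08 CPM (log2 fold change -6.60, SE 0.23, adjusted p = 5.34e-15). DLK1, its protein-coding neighbour, was at 193, 114 and 104 CPM against 447, 341 and 327 CPM (log2 fold change 1.44, SE 0.16), so that the 2 genes differed in opposite directions. H19, a noncoding RNA of the IGF2 locus, fell by 1.00 (SE 0.24).

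Lists for stress and RNA processing did not share 1 direction. Of 16 p53 target genes 10 were higher and 2 lower (median 0.32), of 15 hypoxia genes 7 were higher and 1 lower (median 0.30), and of 14 genes of the unfolded protein and amino acid response 5 were higher and 5 lower. In this last list HSPA5, a chaperone of the endoplasmic reticulum, rose by 0.60 (SE 0.07), and CHAC1, a glutathione-degrading enzyme induced through ATF4, fell by 1.80 (SE 0.15). Among 22 splicing regulators 8 were higher and 7 lower (median 0.06). RBFOX1, a muscle and neuronal splicing factor, was at 7.53, 11.4 and 8.15 CPM against 24.2, 29.6 and 35.6 CPM (log2 fold change 1.72, SE 0.14, adjusted p = 1.92e-09), and RBFOX2, MBNL1 and RBM38 rose by 0.87, 1.16 and 1.14. The epithelial splicing factors ESRP1 and ESRP2 fell by 1.38 (SE 0.10) and 1.37 (SE 0.14), and MBNL3 fell by 1.57. Of 22 genes of the U4/U6.U5 tri-snRNP 6 were higher and 6 lower (median 0.03), and of 10 genes of the U1 snRNP and its partners 6 were lower and none higher (median -0.27), led by LUC7L3 at 218, 223 and 236 CPM against 174, 160 and 146 CPM (log2 fold change -0.50, SE 0.08). The tri-snRNP split depended on the scaling, with 2 higher and 9 lower under total counts.

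The splicing readout was the authors' own comparison of the arms by exon. An event was called where the FDR in the authors' deposited table was under 0.05, the inclusion level differed by at least 0.1 (on a scale from 0 to 1), and both arms averaged 10 or more junction reads in each of their libraries. By this rule 1768 of the 79117 measured events (2.23%) were called in the authors' deposited table, 958 (1.21%) with higher and 810 (1.02%) with lower inclusion in the KO arm. They covered 1594 exons of 1154 genes, and 149 of them differed by at least 0.5, 79 upwards and 70 downwards. In 1583 called events the levels of the arms did not overlap. The rule for a call favours this, and the count was not made over all measured events. A limma test on the same levels, which lets each library count once, called 332 events, of which 321 were among the 1768. Genes with a called event were called for their level about as often as genes with any measured event (64.6% and 63.2%).

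A selection of exons with called differences, all annotated as coding, is shown here. It leaves out longer exons with large differences, such as those of NIN (2139 nt, -0.955) and AFAP1 (252 nt, 0.832) in the authors' deposited table. Left out too is a 46-nt exon of GPR126 (0.77), whose length is not a multiple of 3. NUMB and TNNT2 have smaller differences. The sizes and reading frames of the printed exons therefore do not describe the called exons as a whole. They are printed from GENCODE release 29 transcripts, matched by exon and neighbouring intron length, with the last 3 bases before the downstream splice site in capitals. The first group holds exons with lower inclusion in the libraries labelled KO, at 0.857 or more in the wild-type arm of the authors' deposited table for all but NUMB and TNNT2.

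RYR2 exon of 36 nt: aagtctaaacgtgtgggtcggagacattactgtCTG
SLC8A1 exon of 15 nt: gaaaatacctgtTTG
AKAP9 exon of 54 nt: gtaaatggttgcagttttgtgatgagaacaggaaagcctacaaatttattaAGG
CLIP1 exon of 33 nt: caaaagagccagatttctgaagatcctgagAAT
MYOF exon of 39 nt: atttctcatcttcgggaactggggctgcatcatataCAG
NUMB exon of 33 nt: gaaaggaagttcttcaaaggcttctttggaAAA
TNNT2 exon of 9 nt: caggccCAG

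The second group holds exons with higher inclusion in the libraries labelled KO.

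LPHN2 exon of 129 nt: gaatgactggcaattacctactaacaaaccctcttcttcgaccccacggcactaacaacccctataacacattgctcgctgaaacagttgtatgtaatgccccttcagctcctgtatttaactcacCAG
KCNH7 exon of 21 nt: acaatggtcgcaatgtcaAAG
MEF2D exon of 21 nt: actgaggaccatttagatCTG
RYR1 exon of 18 nt: tcatcaatcgccagaACG
VPS29 exon of 12 nt: gctgggcacAGA
CAPN3 exon of 18 nt: aaaaagaaaaaaaccAAG
RBFOX2 exon of 40 nt: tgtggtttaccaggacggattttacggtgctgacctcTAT
CAMK2D exon of 42 nt: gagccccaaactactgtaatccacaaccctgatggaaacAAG

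Shared features of the called exons were counted over 864 exons with higher and 738 with lower inclusion, beside all 59159 measured exons. Exons of 27 nt or less, often called microexons, made up 7.5% and 5.7% of these against 1.3% of all. The share with a length that is a multiple of 3, and so keeps the reading frame, was 61.5% and 56.2% against 40.1%. The median length was 93 and 102 nt against 116 nt. The last base, by contrast, was a G in 80.7% and 77.1% against 80.2%. The measured exons as a whole were mostly included, with a median level of 0.993 in the wild-type arm of the authors' deposited table. In the called exons that median was 0.468 and 0.776. A comparison with exons of similar inclusion was not made. These are counts over exons, which are not independent replicates, and the intron sequences where QKI is known to bind were not analysed here.

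Ion transport genes held several near-complete switches. RYR2 encodes the calcium release channel of the heart. Its 36-nt exon at chr1:237889573-237889608 (hg19, plus strand) was included at 1, 0.983 and 1 in the wild-type arm and at 0, 0 and 0.005 in the KO arm of the authors' deposited table, a difference of -0.993. SLC8A1 encodes the sodium-calcium exchanger, and its 15-nt exon at chr2:40401846-40401860 (minus strand) went from 0.979, 0.976 and 0.976 to 0.001, 0.002 and 0.001 in the authors' deposited table, a difference of -0.976 over a mean of 1089 and 707 junction reads per library. Neither gene was lower in its total level: RYR2 and SLC8A1 had log2 fold changes of 1.00 (SE 0.13) and 0.64 (SE 0.13).

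CACNA1C carries neighbouring exons of 60 nt each that are used in place of each other in a segment of the channel pore protein. They are printed because the groups differed in which one was used; 34 of their 60 positions are identical. The second of them falls outside the naming rule and was chosen after its values were seen.

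CACNA1C upstream exon of 60 nt: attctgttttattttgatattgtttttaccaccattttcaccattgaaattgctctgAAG
CACNA1C downstream exon of 60 nt: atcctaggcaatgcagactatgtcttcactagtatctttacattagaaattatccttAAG

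In the authors' deposited table, the downstream exon at chr12:2706603-2706662 (plus strand) rose from 0.048, 0.057 and 0.063 to 0.896, 0.929 and 0.882, a difference of 0.846. The upstream exon at chr12:2706396-2706455 fell in the authors' deposited table from 0.829, 0.802 and 0.819 to 0.065, 0.1 and 0.051, a difference of -0.745. Each exon was read against the other as a neighbour in the deposited table, so neither level is its share of all CACNA1C transcripts. Both changes rest on means of 32.7 to 151 junction reads per library. CACNA1G, a T-type calcium channel, included a 69-nt exon at 0.283, 0.153 and 0.051 in the wild-type arm and at 0.941, 0.96 and 0.8 in the KO arm of the authors' deposited table, from means of only 17.3 and 33.7 junction reads. The calcium-dependent kinase CAMK2D included its 42-nt exon at 0.257, 0.259 and 0.196 against 0.619, 0.711 and 0.695 in the authors' deposited table. Of 13 calcium-handling genes with a measured event, 7 had a called event in the authors' deposited table, beside 9.7% of all 11875 genes.

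Sarcomere genes changed exons as well as levels. ACTN2, whose level was lower, has 2 exons of 86 nt used in place of each other. The value of the downstream one depends on the neighbour it is read against in the authors' deposited table. With the upstream alternative as neighbour it was at 0.999, 0.998 and 0.997 in the wild-type arm and at 0.412, 0.43 and 0.377 in the KO arm of that deposited table (difference -0.592). With the exon ending at 236894614 as neighbour it was at 1, 0.999 and 0.999 against 0.723, 0.715 and 0.694 in the deposited table (difference -0.289). The upstream alternative, chosen after its values were seen, rose in the authors' deposited table from 0.001, 0.002 and 0.001 to 0.283, 0.328 and 0.233 (difference 0.28). In its non-muscle relative ACTN1 an 81-nt exon, read against its 66-nt alternative as neighbour in the authors' deposited table, went from 0.744, 0.823 and 0.797 to 0.24, 0.245 and 0.18 (difference -0.566). NEBL, a nebulin-like Z-disc protein, included a 150-nt exon at 0.637, 0.637 and 0.584 against 0.01, 0.019 and 0.03 in the authors' deposited table. TTN, titin, included a 138-nt exon at 0.615, 0.714 and 0.697 against 0.014, 0 and 0 in the authors' deposited table, from means of only 31.3 and 29.3 junction reads per library.

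In the thin filament the shifts were partial but deeply covered. TPM1 used a 126-nt exon, read against its 126-nt alternative as neighbour, at 0.973, 0.962 and 0.963 in the wild-type arm and at 0.705, 0.692 and 0.651 in the KO arm of the authors' deposited table, over a mean of 41461 and 30948 junction reads. This happened in a gene whose level did not pass the test. The 9-nt exon of TNNT2 was at 0.491, 0.52 and 0.444 against 0.243, 0.268 and 0.29 in the authors' deposited table (difference -0.218). In both genes the levels of the 2 arms did not overlap.

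Transcription and splicing factors were among the genes with exon changes. MEF2D, a muscle transcription factor, took up its 21-nt exon at 0.818, 0.818 and 0.899 in the KO arm against 0.09, 0.095 and 0.038 in the authors' deposited table. RBFOX2 included its 40-nt exon at 0.934, 0.903 and 0.918 against 0.209, 0.229 and 0.262 in the authors' deposited table (difference 0.685), and RBFOX1 included a 93-nt exon at 0.806, 0.873 and 0.91 against 0.437, 0.473 and 0.431. Beside the 9.7% of all genes with a called event, the counts were 7 of 21 splicing regulators and 4 of 11 genes of the U1 snRNP and its partners. The energy, WNT and tri-snRNP lists had called events in 0 of 17, 0 of 14 and 0 of 19 genes, few genes at that share. A list of genes with known muscle-regulated exons had called events in 46 of 62 genes (74.2%); it was compiled with earlier results of these data known and is not independent evidence.

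**Figure D4:**
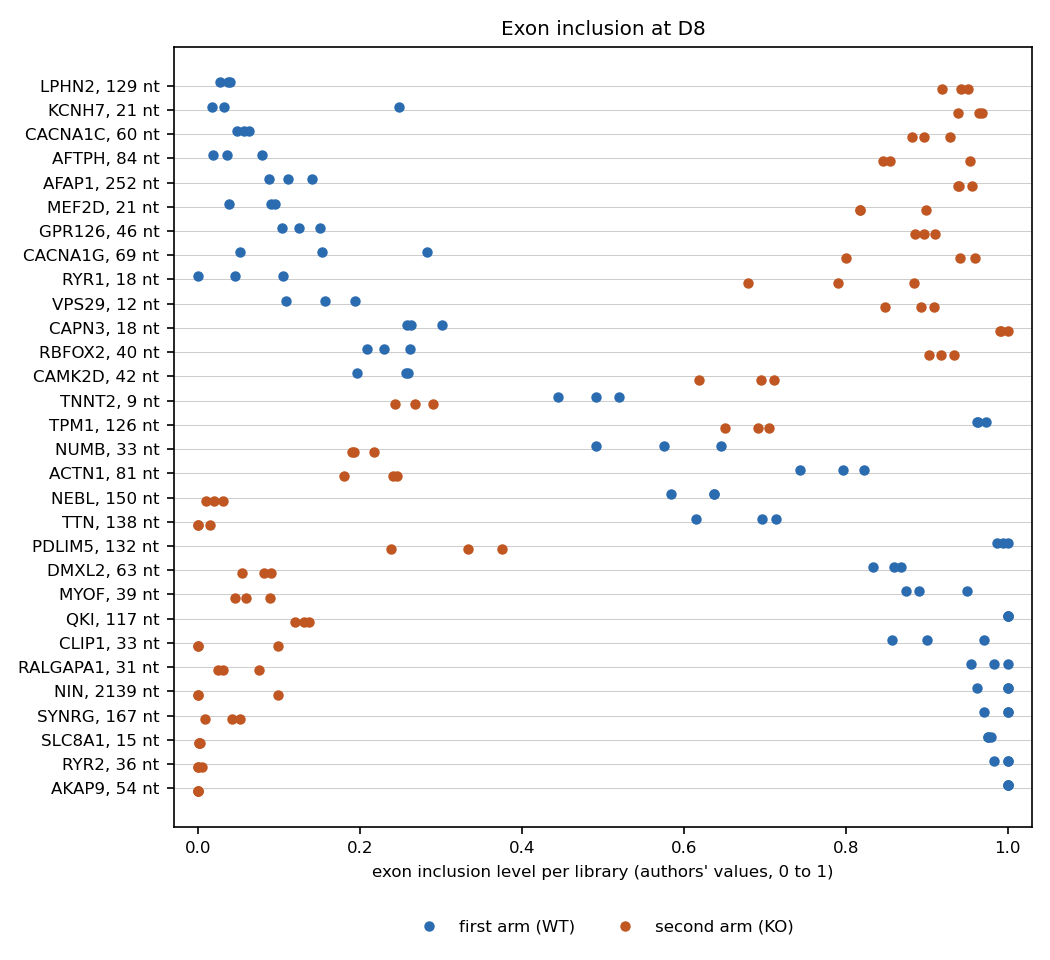
Inclusion level of each library (0 to 1, from the authors' deposited table) for exons with large differences or in sarcomere and signalling genes, 1 row per exon with its length, with the wild-type arm and the KO arm in different colours. The arms do not overlap in any exon drawn; LPHN2 is near 0 in the wild-type arm and above 0.9 in the KO arm, and RYR2, SLC8A1 and AKAP9 are near 1 in the wild-type arm and near 0 in the KO arm.

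Some of these exons were called on every day, and others were called on day 8 and not on the earlier days. LPHN2, an adhesion receptor, is of the first kind: its 129-nt exon was at 0.027, 0.037 and 0.039 in the wild-type arm on day 8 and at 0.951, 0.942 and 0.919 in the KO arm of the authors' deposited table. Its difference was 0.903 on day 8, 0.902 on day 0, 0.93 on day 4 and 0.813 with the siRNA in 293T cells, each called in the authors' deposited tables. NUMB, a regulator of NOTCH signalling, lost its 33-nt exon with differences of -0.371, -0.45, -0.632 and -0.243 in the same order in the authors' deposited tables. MEF2D, with 0.771 on day 8, had differences of 0.049 on day 0, 0.022 on day 4 and 0.112 in 293T cells in the authors' deposited tables, the last of which was called. RBFOX2 had 0.685 on day 8, 0.005 on day 0 and 0.042 on day 4 in the same deposited tables. Its mean level in the wild-type arm of those tables was 0.995 on day 0, 0.958 on day 4 and 0.233 on day 8. The earlier days thus left almost no room for a rise. CAMK2D had 0.438 on day 8 and -0.001 and 0.004 on the earlier days in the authors' deposited tables. Whether these differences between days exceed the spread of the libraries was not tested, since each table is a comparison of its own.

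Over all called events of day 8, 753 with higher and 601 with lower inclusion were measured on day 0, and 137 (18.2%) and 137 (22.8%) were called there in the same direction, beside 1.06% and 1.31% of all events in that deposited table. On day 4 the counts were 138 of 719 (19.2%) and 122 of 574 (21.3%), beside 0.558% and 0.539% of all. In 293T cells they were 36 of 455 (7.9%) and 33 of 377 (8.8%), beside 0.275% and 0.175%. Of the 1175 events measured on both earlier days, 151 were called on both in the day 8 direction and 780 on neither.

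**Figure D5:**
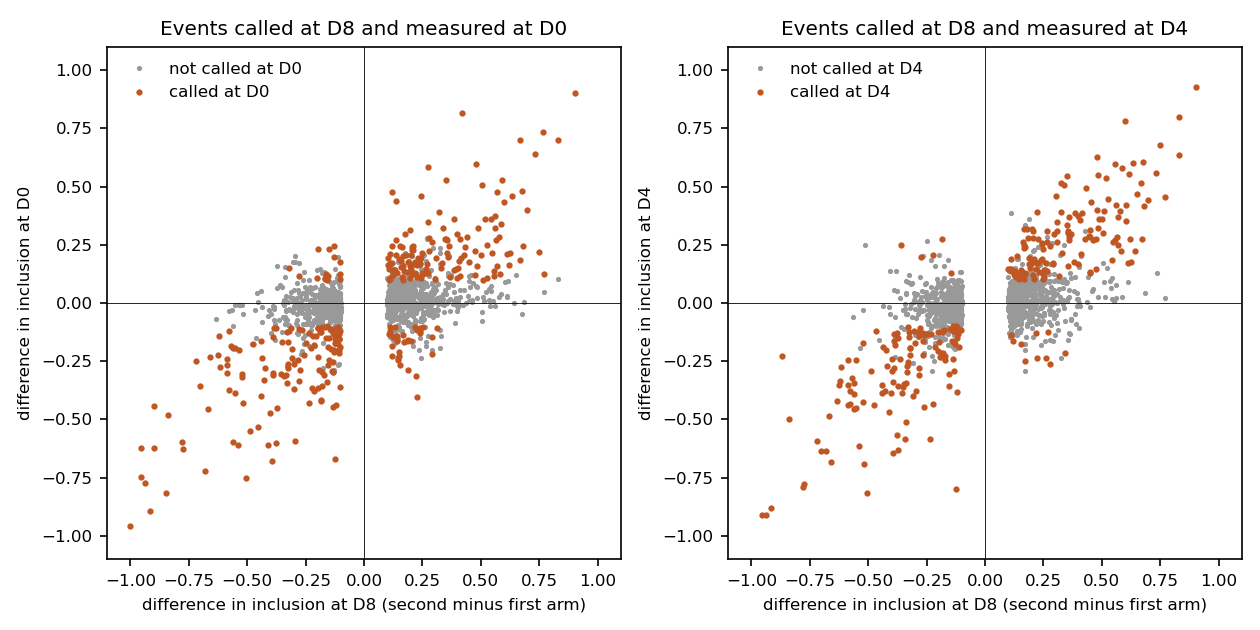
Difference in inclusion (KO arm minus wild-type arm, from the authors' deposited tables) of events called on day 8, on the x axis, against the difference of the same events on another day, on the y axis, with 1 point per event. Points called on the other day lie away from the horizontal axis, while most events sit close to 0 there: 780 of 1175 were called on neither earlier day.

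Gene levels, too, differed between the days. The difference between the genotypes changed from day 4 to day 8 in 9037 genes (41.5%) and from day 0 to day 8 in 9781 (44.9%), by interaction tests in the same edgeR model. For QKI the change from day 4 was 0.95 on the log2 scale (SE 0.13, adjusted p = 5.18e-06) and that from day 0 was 2.95. Of the 12 largest rises of day 8, the change from day 4 was called in 10. In the same direction, 5 of these 12 genes were called on day 4 (16.3% of all genes were higher there) and 4 on day 0 (21.4%). Of the 12 largest falls the change from day 4 was called in all 12, while 7 were called lower on day 4 (12% of all) and 3 on day 0 (20.9%). Both sets were chosen for their size on day 8, which favours a called change, so these counts cannot be read against the 41.5%. DLX5 and CHCHD2 were already lower on day 4, by log2 fold changes of -3.93 and -2.25, whereas MEG3, ABCG2 and WNT4 had 0.23, 0.09 and 0.33 there. On day 0 CHCHD2 was called lower, with a log2 fold change of -0.59, and MEG3 was called higher, with 1.96. DLX5, ABCG2 and WNT4 were not called on day 0.

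Nuclear RNA of day 8 was counted in a separate table, in which 19515 of 30481 genes were called (64.0%), 31.2% higher and 32.8% lower. Of the 12 largest rises in whole-cell RNA 8 were called higher there, and of the 12 largest falls 11 were called lower (TFAP2A had -6.89 in whole cells and -1.05 in nuclei). Of all genes called higher in whole cells, 6245 were tested in nuclei, where 63.9% were called higher and 11.4% lower. Of those called lower, 5377 were tested, and 30.4% were called lower and 35.2% higher. The Z-disc and thick-filament lists went the same way in both fractions, with 14 of 17 and 10 of 13 genes higher in nuclei. Of 12 thin-filament genes, 11 were higher and 0 lower in nuclei. ACTA1 and TPM2, which fell in whole cells, were higher by 0.95 and 0.72 there. The U1 list went opposite ways, with 6 of 10 genes lower in whole cells and 9 of 10 higher in nuclei. So did the endothelial list, with 8 of 14 genes higher in whole cells and 10 of 13 lower in nuclei. GJA1 fell by 0.64 in whole cells while it was higher by 2.26 in nuclei. The nuclear TMM factors differed by genotype, at 0.9177, 0.7661 and 0.8891 in the libraries labelled KO and 1.017, 1.2616 and 1.2472 in the wild type. Compared with scaling by total counts, they raise the KO side. Gene and list values in nuclei were not recomputed under total counts, so their directions depend on this scaling. The fractions come from different tables, and the difference between them was not tested. The labels do not say that both were taken from the same cultures or clones, so a contrast between fractions, such as that of ZNF558 above, cannot be told apart from one between cultures.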

How the data were processed

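Poly(A) RNA was sequenced from stranded libraries, per the labels' protocols; UMI-tools, cutadapt, STAR, featureCounts, DESeq and build hg19 are named in the submitters' processing notes without versions. The authors deposited read counts per gene, 1 table for 18 whole-cell libraries and 1 for 6 nuclear libraries, and exon tables with junction read counts, inclusion levels, a difference score and p-values with FDR. The arms of the deposited exon tables are unnamed. The first was read as wild type: for 32 of 32 genes with large changes, its junction reads lay on the side that the wild-type counts predict. Differences are given as second minus first arm.

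Counts were filtered (filterByExpr), scaled (TMM) and tested with edgeR 4.0.16 (quasi-likelihood, two-sided, 1 mean per group, all 18 whole-cell libraries in 1 fit, Benjamini-Hochberg adjustment over all genes tested, threshold 0.05). SE is the absolute log2 fold change divided by the square root of F. The nuclear table had a fit of its own. CPM values use TMM-scaled library sizes. Inclusion levels were also tested with limma 3.58.1 on the logit, bounded at 0.01. DESeq2 1.42.0, other scalings, filters and libraries left out were alternatives. R 4.3.3, Python 3.11.15, pandas 2.3.3 and scipy 1.17.1 were used, and the count test was tested on simulated data. No per-sample column was left unmapped (0).

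Named were QKI, the 12 largest rises and 12 largest falls with a mean of at least 10 CPM and no overlap, and in each of 30 gene lists the 2 highest-level members, the 3 largest rises and the 3 largest falls. For exons, the 10 largest differences each way with at least 20 junction reads, and the largest called event per gene of the muscle, calcium, channel, cardiac and splicing lists, were named; some genes that these rules name are not reported here. The comparison, the lists and these rules were chosen with earlier results of these data known. Counting intervals and floors cover counting error only. The sources used here do not say whether counting used the strand, so antisense overlaps cannot be told apart.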

Additional observations from a re-analysis of the deposited data

Results flagged for a closer look

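Each of the following was picked out because the difference between the libraries labelled KO and the wild type changed from day 4 to day 8 by an interaction test in the 18-library edgeR model (3 libraries per group, adjusted over all genes tested). Values are the log2 difference at day 8 minus that at day 4. QKI changed by 0.95. Among the largest rises of day 8, the change was 3.31 for COL3A1, 3.26 for TRH, 1.74 for BMP5, 2.71 for FITM1, 1.32 for MFAP4 and 1.77 for SFRP5. It was 2.24 for FAM13C, 1.92 for IRX4 and 2.11 for PRDM6. Among the largest falls it was -10.32 for ZNF558, -4.56 for TFAP2A, -2.78 for DLX5, -6.83 for MEG3, -5.25 for GABRP and -3.78 for CHCHD2. It was -5.88 for ABCG2, -3.99 for WNT6, -4.71 for VTCN1, -5.86 for WNT4, -2.98 for AMER2 and -4.10 for TRIML2. These genes were chosen for their size on day 8, which favours a larger value on that day.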

How the results depend on the processing

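The count of genes called on day 8 ran from 10527 to 12123 over all alternatives run (12097 as reported). Among 185 named genes, none that was called in the main fit or in the alternative changed direction. QKI, which was never called, ran from -0.08 under total counts to 0.15 without D8 WT replicate 2. The number of called exon events depended most on the rule: 1768 became 857 with a difference of at least 0.2 and 332 by limma on the logit of inclusion. The limma count ran from 149 to 188 when any 1 level of an arm was left out, which leaves fewer samples. Scaling by total counts moved the share of calls that were higher to 37.6%. Named genes that lost their call without 1 library included ANKRD1, JPH1, MYH11, VCAN, AFP, ID1, XPC, CD2BP2, MT-CO1, GNAS, MDM2 and ERG, none of which the report describes by its day 8 call. With replicate number as a block, 11136 genes were called, and QKI had a log2 fold change of 0.0407 (adjusted p = 0.761). The numbers did not pair the samples: deviations from the group means correlated at 0.04 for replicate 2 and -0.11 for replicate 4. With a minimum of 20 junction reads 1498 events were called, and with no minimum 2367.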
